A study of Mus musculus with 15 samples.

Results

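The response of mouse liver to chronic ethanol plus a binge dose was compared between Fkbp5 knockout and wild-type animals, gene by gene, as the ethanol effect in knockout livers minus the ethanol effect in wild-type livers. All 15 of the 15 libraries of the series entered the comparison, with 4 libraries of KO ethanol, 3 of KO control, 4 of WT ethanol and 4 of WT control livers. Of 45861 genes in the deposited expression table, 13840 reached 1 FPKM (fragments per transcript length in kilobases and per library depth) in at least 3 libraries and were tested. No member was chosen by its values.

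KO ethanol livers came from Fkbp5-/- mice on C57BL/6 that ate an ethanol liquid diet and then received ethanol by gavage, and KO control livers came from Fkbp5-/- mice of that strain on the control diet with a maltose gavage. WT ethanol and WT control livers came from wild-type C57BL/6 mice handled in the same 2 ways. Dietary ethanol was raised in daily steps to 5% by volume and held there for 10 days, the gavage dose was 5 g/kg, and livers were frozen 9 h after it. Sex, age and the way the Fkbp5 allele was made are not given in the labels, and all groups share the liquid diet base, the gavage and isoflurane. The labels' protocol gives 4 animals a group, whereas 3 KO control libraries were available. The library labelled WT ethanol 4 has a wild-type title but a knockout genotype entry, and it was kept by its title. Its Fkbp5 level, given below, lay with the other WT ethanol libraries. Nothing in the labels says beyond this whether libraries of a group are separate animals, so the spread behind each p-value is that between libraries and may be technical.

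FKBP5 is a co-chaperone that binds HSP90 and lowers the affinity of the glucocorticoid receptor for its hormone, and its own gene is switched on by that receptor, which closes a feedback loop. Hepatocytes oxidize ethanol through alcohol dehydrogenases and the microsomal cytochrome P450 system, and ethanol feeding is known for fat accumulation, altered methionine metabolism and stress hormone release. The series title ties FKBP5 to ethanol injury through the Hippo pathway, the kinase cascade that restrains the coactivators YAP and TAZ, and through the neutrophil chemokine CXCL1. The comparison asks which parts of the ethanol response are shared by the genotypes and which depend on Fkbp5.

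The libraries held an estimated 22100000 to 29100000 fragments, so that 1 fragment on a 1 kb transcript is worth 0.0344 to 0.0453 FPKM. A library had 11701 to 13112 genes at 1 FPKM or more. Library KO control 1 stood apart, since its 10 most abundant genes took 59.3% of its summed FPKM, against 19.7% to 28.5% in the other 14. Its summed FPKM was 790741, against 416837 to 525108 in the other 14. Xist, the RNA that coats the inactive X of females, was above 10 FPKM in 1 of 4 KO ethanol, 2 of 3 KO control, 2 of 4 WT ethanol and 2 of 4 WT control libraries, so both sexes were mixed unevenly. Hepatocyte markers summed to 8570 to 25000 FPKM in KO ethanol, 21100 to 26000 in KO control, 18700 to 25300 in WT ethanol and 19700 to 23900 in WT control libraries, as the liver label implies, although Alb was listed at 0 in KO ethanol 3. Results that rest on KO control 1 or WT ethanol 4 are given with and without that library below.

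The promoters of 4 ethanol-responsive genes are shown because each carries a well-known stress element: metallothioneins Mt1 and Mt2, the sulfiredoxin gene Srxn1 and the HSP110 chaperone gene Hsph1. Each line runs 5′ to 3′ from 250 bases before to 50 after the transcript start, from RefSeq on GRCm38.p6, and capitals mark motif matches on either strand. Mt1 lies at chr8:94178839-94179138 (plus strand), Mt2 at chr8:94172368-94172667 (plus), Srxn1 at chr2:152105274-152105573 (plus) and Hsph1 at chr5:149636287-149636586 (minus, 1 of 2 promoter entries). The motifs are the metal response element core, TGCACNC or TGCGCNC, for Mt1 and Mt2, the antioxidant response element core, TGA and TCAGC with 1 base of any kind between, for Srxn1, and a heat shock element, GAA, TTC and GAA with 2 bases of any kind between each, for Hsph1.
Mt1: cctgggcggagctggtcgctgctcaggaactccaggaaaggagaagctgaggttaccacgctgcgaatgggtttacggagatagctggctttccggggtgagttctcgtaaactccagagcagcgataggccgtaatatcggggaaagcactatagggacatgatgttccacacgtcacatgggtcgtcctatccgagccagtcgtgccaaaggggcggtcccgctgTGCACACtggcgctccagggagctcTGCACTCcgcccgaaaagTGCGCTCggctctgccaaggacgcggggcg
Mt2: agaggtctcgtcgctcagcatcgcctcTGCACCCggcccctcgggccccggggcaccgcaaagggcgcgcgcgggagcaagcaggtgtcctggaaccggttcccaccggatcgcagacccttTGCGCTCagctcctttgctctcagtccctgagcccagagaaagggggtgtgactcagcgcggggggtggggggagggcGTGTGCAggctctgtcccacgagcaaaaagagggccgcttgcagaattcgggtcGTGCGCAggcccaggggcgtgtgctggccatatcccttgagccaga
Srxn1: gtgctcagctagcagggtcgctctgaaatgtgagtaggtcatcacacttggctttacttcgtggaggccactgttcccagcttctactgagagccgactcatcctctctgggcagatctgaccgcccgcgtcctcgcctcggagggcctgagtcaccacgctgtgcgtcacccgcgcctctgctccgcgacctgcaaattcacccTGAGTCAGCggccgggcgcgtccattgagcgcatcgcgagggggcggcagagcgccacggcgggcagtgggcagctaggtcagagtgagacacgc
Hsph1: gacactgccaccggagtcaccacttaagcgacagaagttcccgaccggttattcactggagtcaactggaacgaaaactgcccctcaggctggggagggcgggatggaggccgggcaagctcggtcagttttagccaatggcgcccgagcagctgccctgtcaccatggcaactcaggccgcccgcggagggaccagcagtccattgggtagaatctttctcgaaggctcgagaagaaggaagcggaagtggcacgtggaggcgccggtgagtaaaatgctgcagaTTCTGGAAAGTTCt
The Mt1 window held 3 matches and the Mt2 window 4, which do not overlap. At least 3 matches occurred in 1.97% of 32851 mouse promoter windows of that length, and at least 1 in 25.7%. The antioxidant core matched once in the Srxn1 window and in 1.19% of all windows, and the heat shock element once in the Hsph1 window and in 0.603%. A match is a description of the letters and was not tied to the values that follow. The genes were chosen for these elements, so the shares only say how common a match is.

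Fkbp5 itself (chr17:28398753-28486149) measured 5.41, 4.97, 3.20 and 2.45 FPKM in KO ethanol, 1.07, 1.56 and 0.351 in KO control, 54.5, 23.9, 47.9 and 45.2 in WT ethanol, and 15.2, 9.96, 5.77 and 3.27 in WT control livers. The WT ethanol libraries were the highest, WT ethanol 4 was among them, and within each genotype the ethanol libraries did not overlap the controls. The ethanol effect, as a difference of log2(FPKM + 1), was 1.33 in KO (limma adjusted p = 0.0882) and 2.31 in WT livers (limma adjusted p = 0.0061). The difference between genotypes was -0.98 ± 0.57 (SE; 95% interval -2.20 to 0.24; limma adjusted p = 1). It was -0.44 with a pseudocount of 0.1, -0.45 with array weights and -0.29 with WT ethanol 4 placed with KO ethanol. That last setting puts a library at 45.2 FPKM of Fkbp5 with KO ethanol libraries at 2.45 to 5.41, so it is no fair reading of this gene. For Cxcl1 the difference was -1.51, with an interval of -5.12 to 2.10 (limma adjusted p = 1), so the libraries leave a wide range of values for the gene named in the title.

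The average of the 2 ethanol effects moved for many genes, although a change in 1 genotype can carry it. On that average 2893 genes changed (20.9% of those tested), 971 higher (7.02%) and 1922 lower (13.9%) with ethanol. In KO livers alone 571 genes changed (4.13%), of which 194 rose (1.40%) and 377 fell (2.72%). In WT livers 1066 genes changed (7.70%), of which 427 rose (3.09%) and 639 fell (4.62%). Genes that passed in both genotypes in the same direction numbered 137 higher (0.990%) and 206 lower (1.49%). The shared higher genes were 70.6% of the KO list and 32.1% of the WT list, and the shared lower genes 54.6% and 32.2%. The balance of directions among calls depends on the scaling: higher genes were 33.6% of the average calls on deposited FPKM, 50.5% after median-ratio scaling, 46.7% after quantile normalization and 62.4% after rescaling to a common sum. For the shared genes the higher share was 39.9%, 58.7%, 50.9% and 87.9% under the same 4 scalings. Without WT ethanol 4 the average calls numbered 3400 and the shared genes 473, and without KO control 2 the shared genes numbered 81.

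Genes chosen in one genotype were then read in the other, whose values do not enter the first genotype's effect. All 15 libraries do share the expression filter and the estimate of spread, and with only the 2 groups of a genotype fitted the calls numbered 97 in KO and 518 in WT livers. The 194 genes that rose in KO livers had a median effect of 1.16 there and of 0.99 in WT livers, where 192 of them (99.0%) were positive, against 45.2% of all tested genes. The 377 genes that fell in KO livers had medians of -0.72 in KO and -0.54 in WT livers, where 332 (88.1%) were negative, against 54.8% of all genes. Read the other way, the 427 genes that rose in WT livers had a median of 0.59 in KO livers, against 0.83 in WT livers, and 396 (92.7%) were positive in KO against 36.8% of all genes. The 639 genes that fell in WT livers had a median of -0.53 in KO and -0.70 in WT livers, with 628 (98.3%) negative in KO against 63.2% of all genes. In each of the 4 readings the median was smaller in the genotype that had not chosen the genes. Choosing by a threshold favours large estimates in the choosing genotype, so these medians cannot show a weaker response in the other.

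**Figure D1:**
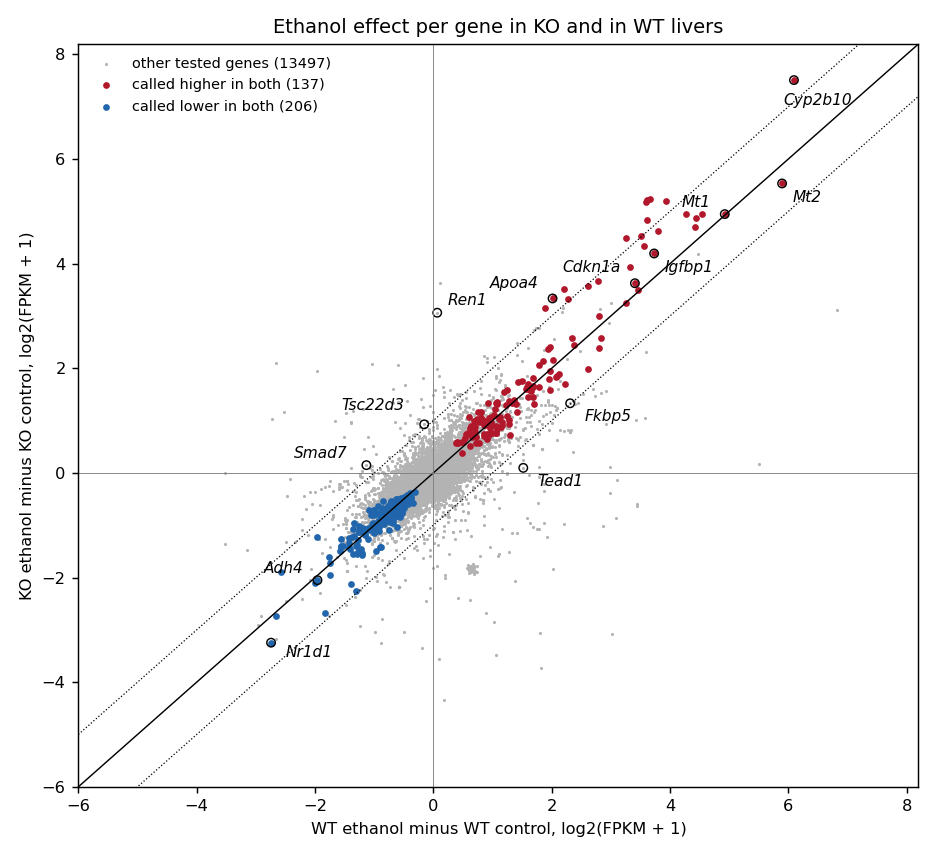
Ethanol effect per gene as a difference of log2(FPKM + 1), in KO livers (vertical axis) and WT livers (horizontal axis), with 1 point per tested gene. Red points are the 137 genes called higher and blue points the 206 called lower in both genotypes, and they lie along the solid diagonal of equal effects; dotted lines lie 1 log2 unit either side, and open circles mark labelled genes.

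The strongest shared gene was Cyp2b10, a cytochrome P450 that the xenobiotic receptor CAR induces. It measured 332, 398, 248 and 426 FPKM in KO ethanol livers against 0.266, 0.451 and 2.67 in KO control livers. In WT ethanol livers it measured 603, 159, 59.6 and 220 FPKM, against 2.58, 5.67, 0.758 and 0.408 in WT control livers. Each ethanol library exceeded each control library by far in both genotypes. The average effect was 6.80 ± 0.46 log2 (SE; limma adjusted p = 7.84e-06), and the difference between genotypes 1.41 with an interval of -0.58 to 3.41. Of the 23 tested genes on the CAR and PXR list, receptors that govern drug clearance, 13 rose on average and 0 fell. Over all genes 7.02% rose and 13.9% fell. Among the 13, Cyp3a13 rose by 1.61 and Por, the electron donor of microsomal P450 enzymes, by 1.78, both in each genotype. The list's median effect was 1.24 in KO and 0.99 in WT livers, and the median over all genes was -0.10 in KO and -0.04 in WT livers.

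The metallothioneins, small zinc-binding proteins whose promoters are shown above, came next in size. Mt1 measured 1957, 2743, 696 and 1622 FPKM in KO ethanol against 138, 139 and 5.73 in KO control livers, and 2352, 1999, 2919 and 404 in WT ethanol against 57.0, 65.0, 137 and 11.3 in WT control livers. Mt2 measured 1602, 2176, 374 and 1692 FPKM in KO ethanol against 108, 53.7 and 2.06 in KO control livers, and 2244, 2261, 2260 and 168 in WT ethanol against 16.4, 18.6, 102 and 3.38 in WT control livers. The library labelled WT ethanol 4 was the lowest of its group for both genes, and the groups did not overlap within either genotype. Mt1 rose by 4.94 ± 0.73 log2 on average (SE; limma adjusted p = 0.000908) and Mt2 by 5.71 ± 0.90 (SE; limma adjusted p = 0.00128). With a sex term the KO effect of Mt2 missed the threshold (limma adjusted p = 0.0573). The differences between genotypes were 0.02 (interval -3.14 to 3.19) for Mt1 and -0.36 (interval -4.24 to 3.52) for Mt2, so wide that a several-fold difference either way lies inside them.

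Some targets of the glucocorticoid receptor, the receptor that FKBP5 restrains, rose in both genotypes. Of 25 tested members, Fkbp5 itself among them, 13 rose on average and 0 fell, 7 rose in KO livers, 7 rose in WT livers and 5 rose in both. Over all genes 7.02% rose on average, 13.9% fell, 1.40% rose in KO livers, 3.09% in WT livers and 0.990% in both. The median effect of the list was 1.20 in KO and 0.96 in WT livers, and the median difference between genotypes was 0.08, against -0.05 over all genes. That difference was 0.40 without KO control 1 and -0.03 with WT ethanol 4 placed with KO ethanol. It was 0.24 after quantile normalization and 0.52 after rescaling to a common sum, where the median over all genes was 0.31. Cdkn1a, the gene of p21, which halts the cell cycle, measured 59.3, 38.1, 27.6 and 37.0 FPKM in KO ethanol against 9.43, 1.14 and 0.519 in KO control livers, and 36.0, 21.4, 33.9 and 12.0 in WT ethanol against 1.67, 1.19, 2.20 and 0.600 in WT control livers. Igfbp1, a secreted binding protein for insulin-like growth factors, measured 351, 188, 89.6 and 417 FPKM in KO ethanol against 39.1, 8.06 and 4.04 in KO control livers, and 459, 214, 359 and 88.7 in WT ethanol against 24.5, 23.2, 22.9 and 5.94 in WT control livers. For both genes the lowest ethanol library lay above the highest control library of its genotype, and KO control 1 was the highest KO control. Cdkn1a rose by 3.52 ± 0.38 log2 (SE; limma adjusted p = 0.000129), with a difference between genotypes of 0.22 (interval -1.41 to 1.85). Igfbp1 rose by 3.96 ± 0.53 log2 (SE; limma adjusted p = 0.00045), with a difference of 0.46 (interval -1.80 to 2.73). The mTOR inhibitor gene Ddit4 rose in both genotypes, and Tat, which starts tyrosine breakdown, rose in KO livers and on average.

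**Figure D2:**
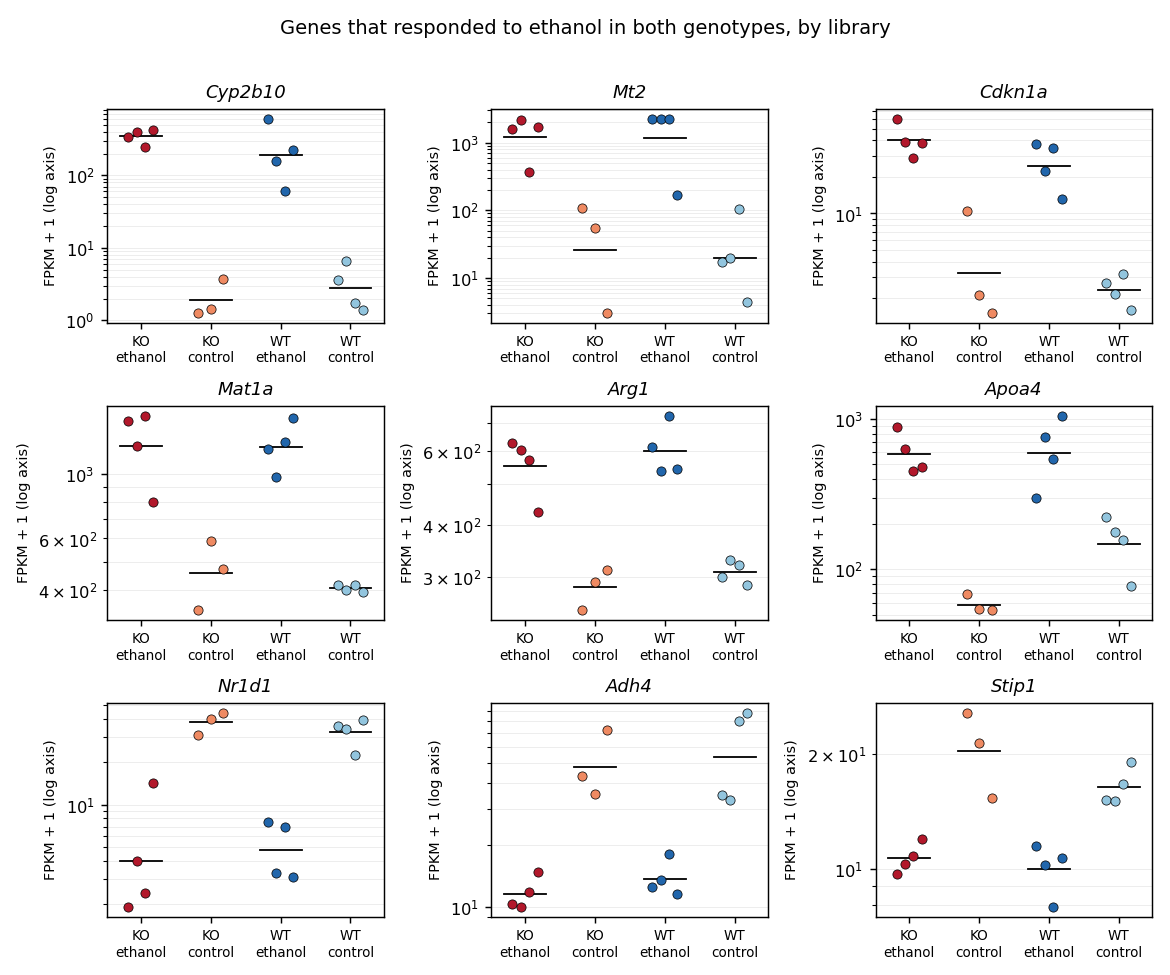
FPKM + 1 on a log axis for 9 genes that passed the test in both genotypes, with 1 point per library and a bar at the group's geometric mean of FPKM + 1, for KO ethanol, KO control, WT ethanol and WT control livers. The ethanol libraries of Cyp2b10, Mt2, Cdkn1a, Mat1a, Arg1 and Apoa4 lie above the controls of their genotype, and those of Nr1d1, Adh4 and Stip1 lie below.

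Oxidative defence genes under the transcription factor NRF2 rose in part. Over all genes 7.02% rose on average, 13.9% fell and 0.990% rose in both genotypes. On the NRF2 list 8 of 20 tested members rose on average, 1 fell, and 3 rose in both genotypes. These 3 were Gsta2, which conjugates glutathione to lipid peroxidation products, Gsta4, of the same family, and Srxn1, which repairs over-oxidized peroxiredoxins. Gsta2 rose by 3.10 and Srxn1 by 2.15 log2 on average. The difference between genotypes for Srxn1 was 0.42, with an interval of -1.25 to 2.08.

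Genes of fat handling moved in both directions. Apoa4, an apolipoprotein of triglyceride-rich particles, measured 884, 631, 446 and 478 FPKM in KO ethanol against 67.3, 53.1 and 52.7 in KO control livers, and 296, 759, 539 and 1050 in WT ethanol against 223, 175, 156 and 76.2 in WT control livers. The KO controls were the lowest of the 4 groups, and no ethanol library overlapped the controls of its genotype. Apoa4 rose by 3.34 log2 in KO (limma adjusted p = 0.00153) and by 2.02 in WT livers (limma adjusted p = 0.0105). The difference, 1.32 ± 0.57 (SE; interval 0.10 to 2.54), had an unadjusted p of 0.0366 and did not pass over all genes (limma adjusted p = 1). Cidec, which enlarges lipid droplets, measured 17.1, 9.28, 8.18 and 3.98 FPKM in KO ethanol against 0.446, 0.517 and 0.888 in KO control livers, and 13.1, 6.99, 16.9 and 3.41 in WT ethanol against 0.895, 0.653, 1.62 and 0.616 in WT control livers. The controls of both genotypes stayed below 2 FPKM. Cidec rose by 2.46 ± 0.31 log2 (SE, limma adjusted p = 0.000325). Of 14 tested lipid droplet and lipolysis genes 6 rose and 1 fell on average, against 7.02% and 13.9% of all genes. Pnpla2, the main triglyceride lipase of droplets, was among those that rose in both genotypes.

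Mat1a and Arg1 rose by smaller amounts with narrower intervals. Mat1a, which makes S-adenosylmethionine in hepatocytes, measured 1512, 1242, 1575 and 799 FPKM in KO ethanol against 341, 588 and 471 in KO control livers, and 1211, 969, 1281 and 1551 in WT ethanol against 414, 400, 416 and 391 in WT control livers. Arg1, the arginase of the urea cycle, measured 626, 602, 571 and 429 FPKM in KO ethanol against 249, 290 and 311 in KO control livers, and 613, 538, 729 and 542 in WT ethanol against 299, 328, 319 and 285 in WT control livers. Neither gene showed any overlap of ethanol with control libraries. Mat1a rose by 1.52 ± 0.17 log2 (SE; limma adjusted p = 0.000134) and Arg1 by 0.97 ± 0.11 (SE; limma adjusted p = 0.000169). Their differences between genotypes were -0.16 (interval -0.88 to 0.55) and 0.00 (interval -0.47 to 0.47), both inside a 2-fold range. On the methionine and one-carbon list 6 of 15 tested members rose and 2 fell on average, against 7.02% and 13.9% of all genes. Mat2a, the second synthetase gene, rose in both genotypes, and Cbs, which diverts homocysteine to cysteine, fell in both. On the urea cycle and periportal list 4 of 16 rose, among them Asl, the argininosuccinate lyase, by 1.37, and Cps1, the entry enzyme of the cycle, by 0.72.

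Among the genes that fell in both genotypes were clock repressors and hepatocyte enzymes. Nr1d1, which encodes the clock repressor REV-ERB alpha, measured 0.905, 3.02, 1.38 and 13.3 FPKM in KO ethanol against 30.1, 39.1 and 43.3 in KO control livers, and 6.58, 2.32, 5.99 and 2.07 in WT ethanol against 35.0, 33.3, 21.3 and 38.5 in WT control livers. Adh4, an alcohol dehydrogenase that also oxidizes retinol, measured 9.35, 9.02, 10.8 and 13.8 FPKM in KO ethanol against 42.3, 34.4 and 71.6 in KO control livers, and 11.5, 12.6, 17.1 and 10.7 in WT ethanol against 34.2, 32.0, 79.0 and 86.8 in WT control livers. The ethanol libraries of both genotypes lay together and below the controls. Nr1d1 fell by 2.99 on the log2 scale (SE 0.38; limma adjusted p = 0.000364) and Adh4 by 2.0 (SE 0.24; limma adjusted p = 0.000269). The differences between genotypes were -0.50 (interval -2.14 to 1.14) for Nr1d1 and -0.09 (interval -1.12 to 0.94) for Adh4. The related clock genes Dbp and Nr1d2 also fell in both genotypes, and 3 of 18 tested clock genes rose and 3 fell on average. Of the 11 ethanol and acetaldehyde oxidation genes 0 rose and 2 fell, Adh4 and Adh7. Over all genes 7.02% rose and 13.9% fell on average, and the falling shares of these 2 lists are near that.

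Fabp1, the abundant fatty acid carrier of hepatocytes, measured 855, 568, 1686 and 679 FPKM in KO ethanol against 3380, 4577 and 4522 in KO control livers, and 857, 2201, 1830 and 1389 in WT ethanol against 4439, 3598, 2761 and 4057 in WT control livers. Ethanol and control libraries did not overlap in either genotype. It fell by 2.25 on the log2 scale in KO and by 1.30 in WT livers, and the difference, -0.95, had an interval of -2.03 to 0.13. Nat8f1, an acetyltransferase-family gene, measured 18.6, 8.84, 15.5 and 17.6 FPKM in KO ethanol against 48.2, 62.9 and 69.1 in KO control livers, and 15.8, 20.6, 17.6 and 15.8 in WT ethanol against 51.9, 68.5, 51.9 and 72.9 in WT control livers. Its ethanol libraries were low in both genotypes, with no overlap. Nat8f1 fell by 1.85 on the log2 scale (SE 0.15; limma adjusted p = 1.95e-05), with a difference between genotypes of -0.21 (interval -0.87 to 0.45).

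Part of the lipid synthesis genes fell on average. Of 23 tested fatty acid synthesis genes 9 fell and 1 rose, and the list's median effect was -0.53 in KO and -0.93 in WT livers. Elovl5, a fatty acid elongase, measured 76.2, 49.9, 125 and 88.3 FPKM in KO ethanol against 183, 148 and 184 in KO control livers, and 60.5, 97.8, 84.1 and 91.8 in WT ethanol against 241, 228, 166 and 163 in WT control livers. It fell in both genotypes without overlap, by 1.16 on the log2 scale (SE 0.18; limma adjusted p = 0.00126), and its KO call was lost with a sex term (limma adjusted p = 0.0506). Of 24 cholesterol synthesis genes 4 fell and 0 rose on average, with a median effect of -0.30 in KO and -0.91 in WT livers, and this share of falling genes is near that over all genes (13.9%). The median difference of the cholesterol list was 0.40, but 0.12 with a sex term and 0.04 with WT ethanol 4 placed with KO ethanol. That of the fatty acid list was 0.37, between 0.22 without KO control 1 and 0.82 after rescaling to a common sum. Under the common sum the median difference over all genes was 0.31. Insig1, which retains the SREBP complex in the endoplasmic reticulum, measured 18.3, 36.6, 16.7 and 144 FPKM in KO ethanol against 68.5, 53.8 and 81.7 in KO control livers, and 50.4, 16.9, 9.40 and 23.8 in WT ethanol against 99.1, 94.6, 116 and 96.9 in WT control livers. Library KO ethanol 4 lay above the KO controls, so the KO groups overlapped. The effect was -0.88 in KO (limma adjusted p = 0.443) and -2.21 in WT livers (limma adjusted p = 0.037), and the difference was 1.33 with an interval of -0.51 to 3.18.

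Some cytosolic chaperones fell with ethanol in both genotypes. Stip1, which links HSP70 to HSP90, measured 8.67, 9.30, 9.78 and 11.0 FPKM in KO ethanol against 24.7, 20.4 and 14.3 in KO control livers, and 10.5, 9.21, 6.92 and 9.66 in WT ethanol against 14.2, 14.1, 15.7 and 18.1 in WT control livers. The groups did not overlap in either genotype. Stip1 fell by 0.83 on the log2 scale (SE 0.12; limma adjusted p = 0.000699), with a difference of -0.21 (interval -0.72 to 0.29). Of 17 tested heat shock and chaperone genes 6 fell on average and 0 rose, against 13.9% and 7.02% of all genes. Fkbp4, the HSP90 co-chaperone that opposes FKBP5 at steroid receptors, fell by 0.88 with a difference of 0.03 (interval -0.61 to 0.68), and the HSP40 gene Dnajb1 fell in both genotypes too. Hsph1, whose promoter is shown above, fell by 1.39 on average, with an effect of -1.22 in KO (limma adjusted p = 0.0721) and -1.56 in WT livers (limma adjusted p = 0.0165).

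Interferon response genes fell in large number. On average 23 of 33 tested members fell and 0 rose, while 13.9% of all genes fell and 7.02% rose. The list's median effect was -0.78 in KO and -0.78 in WT livers. An unadjusted interaction p under 0.05 was held by 0 of the 33 and by 4.00% of all genes. The medians of the list rest in part on KO control 1, whose summed level of 467.6 FPKM was the highest. Without that library the median difference between genotypes was 0.28, against -0.06 with it. The median average effect was -0.60 without it and -0.80 with it. Ddx58, which encodes the viral RNA sensor RIG-I, measured 3.29, 2.48, 4.10 and 3.08 FPKM in KO ethanol against 7.54, 6.41 and 4.96 in KO control livers, and 2.59, 3.77, 2.25 and 3.21 in WT ethanol against 5.94, 4.88, 6.80 and 4.74 in WT control livers. No ethanol library reached the controls of its genotype. Ddx58 fell by 0.76 on the log2 scale (SE 0.12; limma adjusted p = 0.00116), with a difference of -0.04 (interval -0.55 to 0.47), and the guanylate-binding protein gene Gbp6 fell in both genotypes. Markers of Kupffer cells, the resident macrophages of liver, had a summed level of 51.8 to 212 FPKM in KO ethanol, 91.7 to 494 in KO control, 80.0 to 167 in WT ethanol and 129 to 246 in WT control libraries. Of 11 tested members 2 fell on average and 0 rose, while 13.9% of all genes fell. The median difference of these markers was -0.39, and 0.19 without KO control 1, which held the highest sum. Their part in the interferon result was not tested, and in whole liver fewer cells of a type and less RNA per cell cannot be told apart.

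Col3a1, a fibrillar collagen that stellate cells make, measured 0.697, 0.462, 0.684 and 1.47 FPKM in KO ethanol against 5.07, 2.45 and 2.94 in KO control livers, and 1.56, 2.24, 1.86 and 0.858 in WT ethanol against 5.61, 5.07, 6.67 and 3.96 in WT control livers. The ethanol libraries lay below the controls in both genotypes. It fell by 1.28 on the log2 scale in KO and by 1.28 in WT livers, with a difference of 0.00 (interval -0.71 to 0.71). Of 11 tested stellate cell markers 4 fell on average and 0 rose, while 13.9% of all genes fell and 7.02% rose.

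Whether a response is shared depends on how tightly its difference between genotypes is bounded. The 95% interval of the difference lay inside -1 to 1, a 2-fold range either way on FPKM + 1, for 10435 of the 13840 genes (75.4%). Among the 2893 genes of the average response it did so for 2201 (76.1%), among the shared lower genes for 183 of 206 and among the shared higher genes for 76 of 137. The bounded share depends on the pseudocount, since a larger one narrows the intervals of low genes. Among the genes of the average response it was 58.2% with a pseudocount of 0.1 and 90.4% with 5. The median half-width of the interval was 0.51 over all genes and 0.55 over the shared genes. Arg1, Mat1a, Stip1, Ddx58, Col3a1, Fkbp4 and Nat8f1 were bounded in this way, whereas Cyp2b10, Mt1, Mt2, Igfbp1, Orm3 and Cdkn1a, whose average effects exceeded 3, were not. Of 343 shared genes 5 had an unadjusted interaction p under 0.05.

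**Figure D3:**
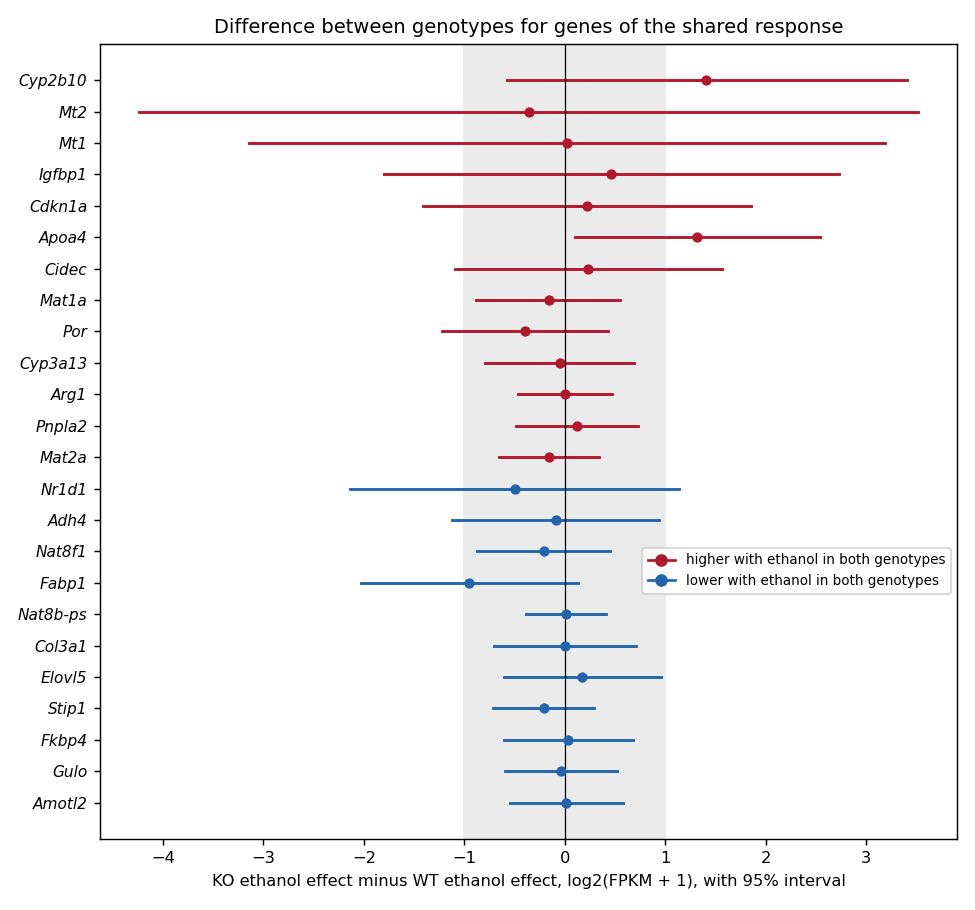
Difference between genotypes (KO ethanol effect minus WT ethanol effect) in log2(FPKM + 1) with its 95% interval for 24 genes called in both genotypes, red for genes higher and blue for genes lower with ethanol. The grey band spans -1 to 1: intervals of Arg1, Mat2a and Stip1 lie inside it, and those of Mt1, Mt2 and Cyp2b10 reach well outside it.

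No gene passed the test of the difference between genotypes. With limma and Benjamini-Hochberg adjustment 0 of 13840 genes were called (0%), and the smallest adjusted p was 0.309. Without adjustment 553 genes (4.00%) had p under 0.05, 99 with a more positive effect in KO (0.715%) and 454 with a more negative one (3.28%). Array weights in limma gave 7 calls. Leaving out KO control 1 gave 43 calls, all more negative in KO, which are described with the structural RNAs, and leaving out WT ethanol 4 gave 1. The genes below are therefore the top of a ranking in which none passed, and each is given as values.

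Tsc22d3, which encodes the glucocorticoid-induced leucine zipper GILZ, ranked high among genes with a more positive effect in KO livers. It measured 47.0, 31.5, 36.5 and 29.5 FPKM in KO ethanol against 25.7, 18.1 and 12.8 in KO control livers, and 21.1, 21.3, 15.4 and 18.9 in WT ethanol against 24.7, 24.2, 15.8 and 21.7 in WT control livers. The KO ethanol libraries were the highest of all 15 and did not overlap the KO controls, and the WT groups overlapped. It rose by 0.93 in KO (limma adjusted p = 0.0397), and the effect was -0.15 in WT livers (limma adjusted p = 0.676). The difference was 1.08 ± 0.31 (SE; interval 0.42 to 1.75; unadjusted p = 0.00378; limma adjusted p = 0.489). It was the 1 of 25 glucocorticoid receptor targets with an unadjusted interaction p under 0.05, a share near that over all genes (4.00%). Fkbp5, another of these targets, had a difference of the other sign (-0.98, and -0.44 with a pseudocount of 0.1). It is the gene knocked out, and it measured 0.351 to 1.56 FPKM in KO control livers. Its sign therefore cannot be read as a receptor target responding the other way.

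Ip6k2, an inositol hexakisphosphate kinase, had a similar pattern. It measured 19.7, 14.8, 17.7 and 18.4 FPKM in KO ethanol against 13.0, 7.18 and 11.1 in KO control livers, and 13.5, 9.06, 9.56 and 9.82 in WT ethanol against 15.7, 13.5, 11.1 and 12.4 in WT control livers. The KO groups did not overlap, and WT ethanol 1 lay within the WT controls. It rose by 0.74 in KO livers (limma adjusted p = 0.0433; 0.0651 with a sex term), and the difference was 1.05 ± 0.25 (SE; interval 0.50 to 1.59; limma adjusted p = 0.411).

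Ren1, which encodes renin, had the largest estimate of the genes given here. It measured 18.9, 5.31, 43.0 and 42.3 FPKM in KO ethanol against 0.792, 4.01 and 1.06 in KO control livers, and 0.167, 0.0295, 0.273 and 0 in WT ethanol against 0.0282, 0.0286, 0.205 and 0 in WT control livers. KO libraries were above WT libraries under either diet, and WT livers held too little signal for an ethanol effect to be detectable at this depth. It rose by 3.06 in KO livers (limma adjusted p = 0.0114), and the difference was 3.0 ± 0.74 (SE; interval 1.40 to 4.59; limma adjusted p = 0.411). Some mouse strains carry a near-identical second renin gene, Ren2, whose reads these values could not separate.

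Smad7, an inhibitor of TGF-beta signalling, measured 3.90, 4.31, 4.29 and 4.41 FPKM in KO ethanol against 4.32, 3.78 and 3.11 in KO control livers, and 2.04, 3.37, 2.32 and 3.86 in WT ethanol against 11.4, 12.3, 4.38 and 4.55 in WT control livers. The WT groups did not overlap, the 2 highest values were WT controls, and the KO groups overlapped. Those 2 values came from the WT control libraries with Xist above 10 FPKM, and the other WT controls measured 4.38 and 4.55. Smad7 fell in WT livers by 1.13 on the log2 scale (limma adjusted p = 0.0271), and the effect in KO livers was 0.15 (limma adjusted p = 0.805). The difference was 1.28 ± 0.40 (SE, interval 0.41 to 2.15, limma adjusted p = 0.602). With a sex term from Xist it was 1.52 (interval 0.92 to 2.12, limma adjusted p = 0.345).

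**Figure D4:**
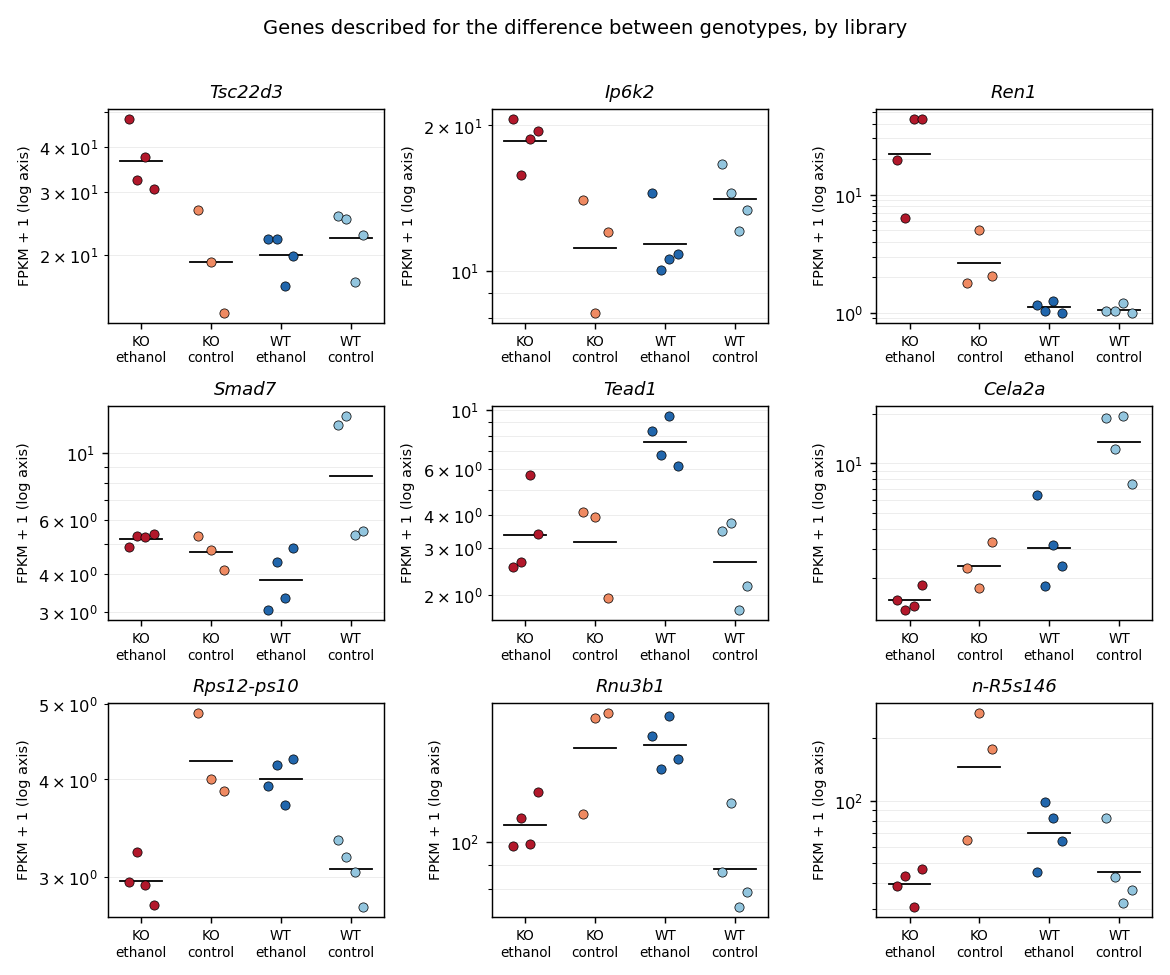
FPKM + 1 on a log axis for 9 genes described for the difference between genotypes, with 1 point per library and a bar at the group's geometric mean of FPKM + 1, for KO ethanol, KO control, WT ethanol and WT control livers. Tsc22d3, Ip6k2 and Ren1 are highest in KO ethanol, Tead1 in WT ethanol and Cela2a in WT control livers, and the difference between genotypes passed the adjusted test for none of the 9.

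Of the Hippo pathway, which the series title names, 1 of 19 tested core members, Tead1, had an unadjusted interaction p under 0.05. That share is near the 4.00% over all genes. On average 3 of the 19 rose and 2 fell, while 7.02% of all genes rose and 13.9% fell. The median difference between genotypes was -0.06, and 17 of the 19 intervals lay inside -1 to 1, against 75.4% over all genes. Tead1, a DNA-binding partner of YAP, measured 1.54, 1.66, 4.68 and 2.41 FPKM in KO ethanol against 3.13, 2.95 and 0.936 in KO control livers, and 7.36, 5.80, 8.54 and 5.16 in WT ethanol against 2.49, 2.73, 0.750 and 1.16 in WT control livers. WT ethanol libraries were the highest and apart from the WT controls, and the KO groups overlapped. Among Xist-high libraries KO ethanol 3 (4.68 FPKM) lay above KO control 1 and 2 (3.13 and 2.95), and among the others KO ethanol 1, 2 and 4 lay above KO control 3. Tead1 rose by 1.52 in WT livers (limma adjusted p = 0.0163), the effect in KO livers was 0.10 (limma adjusted p = 0.898), and the difference was -1.42 ± 0.47 (SE; interval -2.45 to -0.40; unadjusted p = 0.01; limma adjusted p = 0.68). With a sex term from Xist the KO effect was 0.33 (limma adjusted p = 0.585) and the difference -1.19 (interval -2.06 to -0.33; limma adjusted p = 0.632).

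Amotl2, an angiomotin that binds YAP and is one of its target genes, measured 5.95, 4.45, 3.76 and 3.72 FPKM in KO ethanol against 6.91, 9.35 and 10.0 in KO control livers, and 3.63, 3.47, 3.35 and 5.59 in WT ethanol against 7.87, 8.16, 6.10 and 9.85 in WT control livers. It fell in both genotypes without overlap, by 0.84 on the log2 scale on average (SE 0.13; limma adjusted p = 0.00116), with a difference of 0.01 (interval -0.55 to 0.58). Wwtr1, which encodes TAZ, measured 4.89, 4.65, 4.57 and 4.79 FPKM in KO ethanol against 3.009, 2.999 and 3.009 in KO control livers, and 5.57, 5.79, 4.01 and 4.38 in WT ethanol against 2.26, 2.82, 4.41 and 3.40 in WT control livers. It rose on average by 0.51 (limma adjusted p = 0.00466), with a difference of 0.01 (interval -0.43 to 0.45). Of 13 tested YAP and TEAD targets 1 rose and 4 fell on average, against 7.02% and 13.9% of all genes. The median difference of these targets was 0.00. An unadjusted interaction p under 0.05 was held by 1 member, the kinase gene Nuak2, and by 4.00% of all genes. Of 11 tested chemokines 1 rose, Ccl9, and 5 fell, Cxcl10 and Cxcl9 among them, and 0 had an unadjusted interaction p under 0.05. Over all genes 7.02% rose, 13.9% fell and 4.00% had such a p. Neutrophil markers summed to 26.4 to 951 FPKM in KO ethanol, 5.60 to 72.4 in KO control, 68.5 to 1640 in WT ethanol and 11.2 to 269 in WT control libraries, so that single libraries spread more widely than the groups.

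Acute phase genes, secreted by hepatocytes during inflammation, had a median effect of 0.53 in KO and 1.01 in WT livers. Of 26 tested members 6 rose on average and 0 fell, and 0 had an unadjusted interaction p under 0.05. Over all genes these shares were 7.02%, 13.9% and 4.00%. Orm3, an orosomucoid, rose in both genotypes, and Serpina3m, a protease inhibitor, rose in WT livers and on average. The median difference of the list was -0.44 on deposited FPKM, -0.38 with median-ratio scaling and 0.00 after rescaling to a common sum. It was -0.05 without KO control 1 and -0.91 with WT ethanol 4 placed with KO ethanol. Under the common sum the median difference over all genes was 0.31. Fatty acid oxidation and ketogenesis genes had a median difference of -0.34, which became 0.12 under the common sum, -0.50 without KO control 1, and -0.11 both with WT ethanol 4 placed with KO ethanol and with a sex term. Of its 28 tested members 0 rose and 4 fell on average, a share of falling genes near that over all genes (13.9%). Among the 4 was Ppara, the nuclear receptor that drives the pathway, which fell in KO livers.

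**Figure D5:**
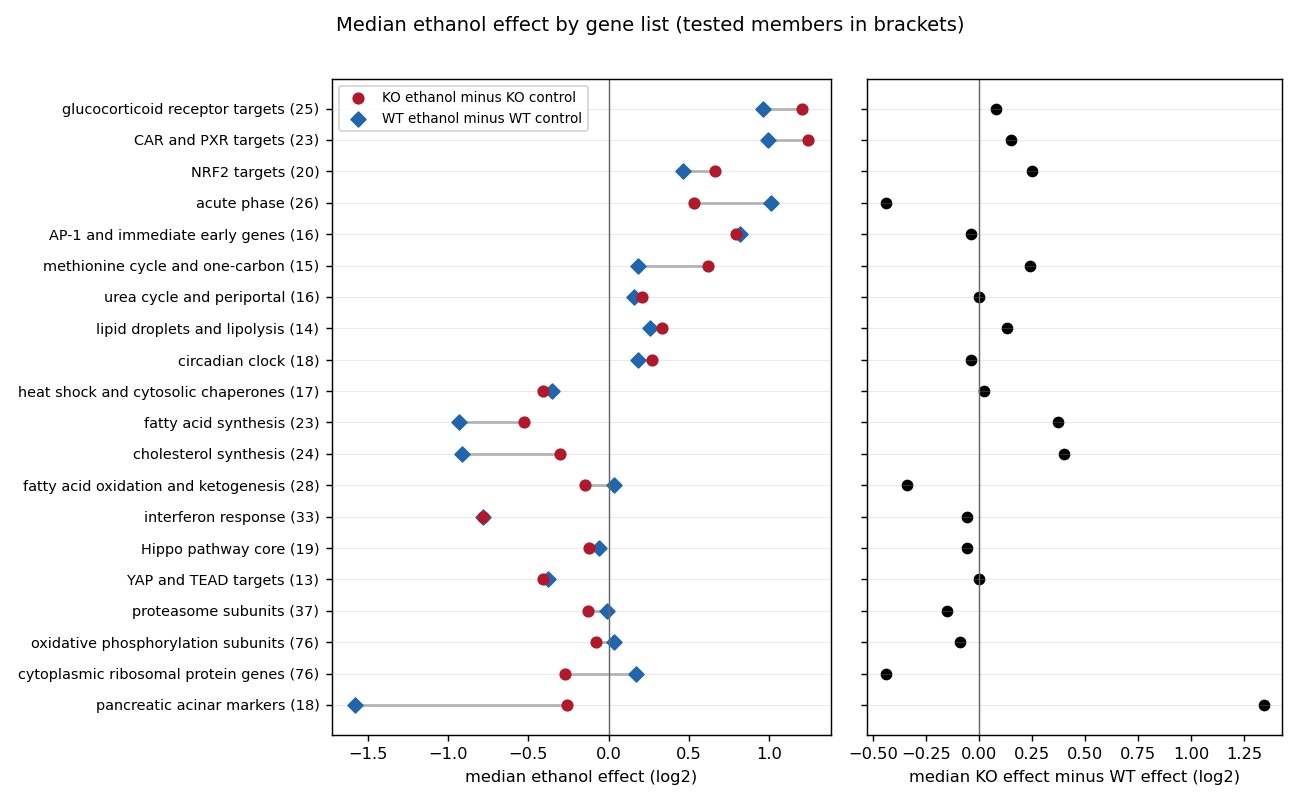
Left, median ethanol effect (log2) of the tested members of 20 gene lists in KO livers (red circles) and WT livers (blue diamonds). Right, the median difference between genotypes, which lies between -0.50 and 0.50 for each list except the pancreatic acinar markers at 1.34.

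Markers of pancreatic acinar cells, which are not liver genes, had a median difference farther from 0 than any other list examined, before erythroid markers (-1.12 over 5 tested genes) and male-high sex-biased genes (0.60 over 17). Of 23 listed genes 18 were tested, and 13 of the 18 passed the expression filter only with the WT control libraries, where they are high. Their counts, median difference and rank among the lists are therefore a description and no support. Their summed level was 4.28 to 11.0 FPKM in KO ethanol, 9.11 to 29.4 in KO control, 8.71 to 42.2 in WT ethanol and 54.5 to 154 in WT control libraries. The WT control libraries lay above all others. Cela2a, a pancreatic elastase, measured 0.488, 0.287, 0.360 and 0.837 FPKM in KO ethanol against 1.31, 0.748 and 2.33 in KO control livers, and 5.39, 0.812, 2.19 and 1.40 in WT ethanol against 17.8, 11.3, 18.5 and 6.51 in WT control livers. It fell by 2.14 on the log2 scale in WT livers (limma adjusted p = 0.00752), the effect in KO livers was -0.69 (limma adjusted p = 0.346), and the difference was 1.46 ± 0.55 (SE; interval 0.27 to 2.65; limma adjusted p = 0.905). Of the 18 tested members 17 had an unadjusted interaction p under 0.05, against 4.00% of all genes. The median difference was 1.34, and 1.31 to 1.47 under the 3 other scalings. Each scaling used the same filtered members, so it does not remove the effect of the filter.

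Ribosomal protein genes held many of the other low p-values, and the size of their difference depends on scaling. Of 76 tested cytoplasmic ribosomal protein genes 56 had an unadjusted interaction p under 0.05, against 4.00% of all genes. All were read in the same 15 libraries, so they are not 56 separate observations. The median difference was -0.44 on deposited FPKM, -0.37 after median-ratio scaling, -0.23 after quantile normalization and 0.02 after rescaling to a common sum. In the same order the median over all genes was -0.05, 0.01, 0 and 0.31, so the list lay below all genes each time. Rps27a, which encodes a ubiquitin fusion of a small-subunit protein, measured 78.8, 95.5, 71.6 and 74.6 FPKM in KO ethanol against 105, 100 and 96.2 in KO control livers, and 100, 113, 100 and 90.4 in WT ethanol against 85.0, 76.5, 84.9 and 84.2 in WT control livers. Rpl37a, a large-subunit gene, measured 113, 120, 113 and 105 FPKM in KO ethanol against 154, 160 and 146.3 in KO control livers, and 144, 146.2, 123 and 135 in WT ethanol against 128, 117, 124 and 142 in WT control livers. For Rps27a the ethanol libraries lay below the KO controls and above the WT controls without overlap, whereas for Rpl37a the WT groups overlapped. The difference was -0.61 (interval -0.96 to -0.27; limma adjusted p = 0.442) for Rps27a and -0.55 (interval -0.86 to -0.23; limma adjusted p = 0.442) for Rpl37a. Summed over the list the level was 7070 to 8610 FPKM in KO ethanol, 8570 to 9660 in KO control, 7910 to 10100 in WT ethanol and 7340 to 8580 in WT control libraries. Of 37 proteasome and 76 oxidative phosphorylation subunit genes, 34 and 75 had intervals inside -1 to 1, and 0 of either list had an unadjusted interaction p under 0.05.

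The lowest p of all tested genes with a settled symbol belonged to Rps12-ps10, a ribosomal pseudogene, whose reads cannot be separated from those of its parent Rps12 with certainty. It measured 1.96, 2.23, 1.93 and 1.76 FPKM in KO ethanol against 3.87, 3.01 and 2.87 in KO control livers, and 2.92, 3.18, 2.71 and 3.24 in WT ethanol against 2.35, 2.18, 2.05 and 1.75 in WT control livers. It was the 1 gene that passed in both genotypes in opposite directions, with an effect of -0.51 in KO (limma adjusted p = 0.0226) and 0.38 in WT livers (limma adjusted p = 0.0318). The difference was -0.89 ± 0.14 (SE; interval -1.20 to -0.59; unadjusted p = 2.43e-05; limma adjusted p = 0.309). Ethanol and control libraries were separated in opposite directions in the genotypes for 14 genes (0.101%), against 319 separated upward (2.30%) and 664 downward (4.80%) in both.

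Small structural RNAs moved together. All 26 tested entries named as 5S ribosomal RNA had an unadjusted interaction p under 0.05, against 4.00% of all genes. Near-identical copies share reads, so they are not 26 measurements. The median effect of these entries was -1.85 in KO and 0.65 in WT livers. Their summed level was 870, 1110, 759 and 1150 FPKM in KO ethanol against 1420, 7060 and 4290 in KO control livers, and 1100, 2370, 2000 and 1520 in WT ethanol against 2060, 962, 720 and 885 in WT control livers. KO control 2 and 3 carried the high KO values, KO control 1 lay near the other groups, and the WT groups overlapped. For the entry n-R5s146 the difference was -2.49 ± 0.59 (SE; interval -3.77 to -1.21; limma adjusted p = 0.411). Without KO control 1 the test called 43 entries, 26 of them 5S RNA by name and 0 protein coding. Their differences were -4.12 to -0.79, with a lowest limma adjusted p of 0.026. Chromosome 8 held 32 of the 43, among them Gm22109, which is not named as 5S. Gm22109 measured 56.5, 277 and 173 FPKM in KO control livers, near 59.1, 291 and 168 for the 5S entry Rn5s. The count by name may therefore be too low.

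The U3 RNA entry Rnu3b1, a guide of ribosomal RNA processing, measured 97.1, 112, 98.3 and 126 FPKM in KO ethanol against 114, 180 and 184 in KO control livers, and 165, 141, 181 and 148 in WT ethanol against 85.7, 120, 72.6 and 77.9 in WT control livers. Rnu12, the U12 RNA of the minor spliceosome, measured 333, 378, 457 and 624 FPKM in KO ethanol against 366, 592 and 498 in KO control livers, and 564, 512, 572 and 723 in WT ethanol against 214, 245, 157 and 85.9 in WT control livers. In WT livers both were separated upward with ethanol, and in KO livers the groups overlapped. The differences were -1.37 ± 0.27 (SE; limma adjusted p = 0.309) for Rnu3b1 and -1.97 ± 0.44 (SE; limma adjusted p = 0.386) for Rnu12. By class, an unadjusted interaction p under 0.05 was held by 2.28% of 10979 protein-coding genes and 2.47% of 932 long noncoding RNAs. It was held by 16.7% of 1093 pseudogenes and 11.9% of 261 small RNA entries not named as 5S. Short transcripts are sensitive to fragment selection in FPKM estimates, and the part of library preparation in these values was not tested.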

How the data were processed

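Whole-liver RNA was sequenced in 15 libraries. The authors deposited a gene table in FPKM, made with TopHat, Cufflinks and Cuffdiff on mm9, per the submitters' processing notes; parameters are not given in the sources used here. Gene positions in the table match GRCm38 for 99.53% of 41266 matched symbols, so positions are given on GRCm38. Counts were not used here, so depth was estimated from the FPKM steps of single-isoform genes, and intervals rest on the spread between libraries.

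Values were taken as log2(FPKM + 1), which understates changes of low genes. Genes at 1 FPKM or more in at least 3 libraries were fitted with limma 3.58.1 (R 4.3.3; 4 group means, trended empirical Bayes), 2-sided, with Benjamini-Hochberg adjustment over the 13840 genes and a threshold of 0.05. The contrasts were the difference of the ethanol effects (KO minus WT), their average, and the effect in each genotype. The fit was tested on simulated data. Tables and plots used Python 3.11.15, numpy 2.4.6, pandas 2.3.3 and matplotlib 3.10.9.

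Members and gene lists were chosen with earlier results of these data known. The naming rule took Fkbp5 and Cxcl1, the 15 lowest interaction p-values in each direction, the 15 highest and 15 lowest shared effects without overlapping libraries, and, per list, up to 4 called members and the 2 lowest interaction p-values. Genes with provisional symbols, Xist and Y-linked genes were left out of all but the lists. The text gives a part of these genes, picked with their values in view. Alternatives covered the pseudocount, filters, scaling, the limma settings, the replicate block, a sex term from Xist, the doubtful libraries and each library left out. Replicate numbers did not pair the samples. Groups follow the sample titles. Of 27 symbols stored as dates 22 were restored.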

Additional observations from a re-analysis of the deposited data

Results flagged for a closer look

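Single libraries lay far from the rest of their group for 5 genes among the 33 given by library. Mt2 measured 168 FPKM in the library labelled WT ethanol 4, against 2244 to 2261 in the other WT ethanol livers. Amotl2 measured 5.59 FPKM in that same library, against 3.35 to 3.63 in the other WT ethanol livers. Igfbp1 measured 5.94 FPKM in WT control 4, against 22.9 to 24.5 in the other WT controls. Ren1 measured 0.205 FPKM in WT control 3, against 0 to 0.0287 in the other WT controls, a level of a few fragments. Rps27a measured 76.5 FPKM in WT control 2, against 84.2 to 85.0 in the other WT controls. These come from 99 groups of 4 libraries over the 33 genes, and none from the 12 groups of library measures such as depth. Chance alone marks about 1 group in 20, and the 5 flags are near that. The rule was not run on the 3 KO control libraries, so it could not flag KO control 1, whose 10 most abundant genes took 59.3% of its summed FPKM.

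For 3 ribosomal genes, ethanol and control libraries were separated in opposite directions in the genotypes, lower with ethanol in KO livers and higher in WT livers. The differences were -0.89 for Rps12-ps10, -1.35 for Rps27-ps2 and -0.61 for Rps27a, and none passed the test of the difference over all genes, where limma's adjusted p was 0.309, 0.309 and 0.442.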

How the results depend on the processing

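The difference between genotypes gave 0 calls with limma (553 genes at an unadjusted p under 0.05) and 0 under most alternatives. It gave 7 with array weights (Rps12-ps10 and 6 other short or provisional entries, all more negative in KO), 1 with no filter on low values, and 0 to 43 when each library was left out in turn, the 43 without KO control 1. With both KO control 1 and WT ethanol 4 left out, added after seeing the data, it gave 2. The replicate block left the difference at 0 calls, with 303 calls in KO, 673 in WT and 203 shared genes, and changed no direction. Same-numbered libraries of different groups deviated together in 7 of 21 pairs only (correlations -0.329 to 0.444 around the group means), so the numbers do not pair them.

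The average response held 2893 genes. It held 1793 at a minimum of 5 FPKM, 1498 after rescaling to a common sum, 5371 with array weights and 2052 (without KO control 2) to 3400 (without WT ethanol 4) when each library was left out. Bounded genes within it, 2201, became 1280, 693, 4348 and 1436 to 2476 under those settings. They were 1643 of 2821 average genes with a pseudocount of 0.1 and 2593 of 2869 with a pseudocount of 5. KO calls, 571, became 327 with no filter, 4140 with array weights, 97 with the 2 KO groups fitted alone, 344 with both doubtful libraries out and 95 (without KO control 2) to 754 with each library out. WT calls, 1066, became 642 with no filter, 492 with the common sum, 2248 with array weights, 518 with the 2 WT groups alone, 1827 with WT ethanol 4 placed with KO ethanol, 1786 with both doubtful libraries out and 384 (without WT control 2) to 1772 (without WT ethanol 4). Shared genes, 343, became 173, 140 and 1419 with no filter, the common sum and array weights, and 81 to 473 with each library out. The Fkbp5 difference ranged from -1.29 to -0.65 and the Cxcl1 difference from -2.63 to -0.69 with each library out. Over the other settings Fkbp5 lay between -1.27 (pseudocount 5) and -0.29 (WT ethanol 4 placed with KO ethanol), and Cxcl1 between -2.78 (that same move) and -1.03 (replicate block). The move counts as KO a library whose Fkbp5 level lay with the WT ethanol libraries.

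Higher genes were 34.0% of KO calls on deposited FPKM, 59.7% after median-ratio scaling, 52.2% after quantile normalization and 94.6% after rescaling to the common sum, and 40.1%, 45.6%, 42.4% and 32.5% of WT calls. The common sum shifted the median of all genes by 0.35 for the difference, 0.09 for the average, 0.26 in KO and -0.09 in WT livers. Rescaling to a common sum divides each library by its summed FPKM. That sum was 790741 in KO control 1, against 416837 to 525108 in the other 14 libraries. The part of KO control 1 in these changes was not tested, and neither was any other cause. No result changed sign among named genes, and 9 single-gene results passed the threshold only with array weights or without KO control 1. A sex term gave 0 calls for the difference, and 761 genes at an unadjusted p under 0.05. Its values for single genes were added after seeing the data. Low genes are limited by depth, and the 3 KO control libraries limit the precision of the difference.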
